A study of Mus musculus with 10 samples.

Results

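The histone methylation and deacetylation enzyme genes are the protein-coding genes of the GRCm38 RefSeq table whose symbols begin with Kmt, Kdm, Hdac, Setd or Nsd and a digit. Their accessible chromatin was followed in ATAC-seq peak lists of mouse haematopoietic stem and progenitor cells (HSPCs). ATAC-seq marks open chromatin through the insertions of the Tn5 transposase, and a peak is a stretch where insertions pile up. Peaks of the 8 HSPC libraries on chromosomes 1 to 19 and X were merged across libraries wherever a base was shared, giving 103446 merged regions. A region belonged to an enzyme gene when its midpoint lay in the gene, or when that gene was the nearest within 100 kb. By this rule 331 regions belonged to 47 of the 48 enzyme genes, and Kdm5d, on chromosome Y, was not analysed here. The rule used only gene names and positions. The farthest region taken in lay 87903 bp from Setd4 and was called in 1 library, and the nearest one left out lay 110539 bp from Hdac4 and was called in 4. In all, 25 regions whose nearest gene was an enzyme gene lay beyond the limit.

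Libraries came from lineage-negative bone marrow cells of C57BL/6 mice, with 2 biological replicates for each of 4 genotypes. They were wild type (WT), Npm1flox-cA/+;Mx1-Cre+ (Npm1c) and Flt3ITD/+ (Flt3-ITD), and a double mutant (DM) with the alleles of both, Npm1flox-cA/+;Flt3ITD/+;Mx1-Cre+. Npm1c is the cytoplasmic form of nucleophosmin found in acute myeloid leukaemia, here released by Mx1-Cre, a Cre under an interferon-inducible promoter. The labels name no Cre in the WT and Flt3-ITD groups, so the Npm1c allele and Mx1-Cre cannot be told apart. Flt3-ITD is an internal tandem duplication that keeps the FLT3 cytokine receptor active. The cells were enriched by depletion of lineage-marked cells, so each library is a mixture of stem and progenitor types. The labels used here give no sex, age or animal for a replicate, and p-values measure only the spread between these libraries. The series also has 2 neutrophil samples from WT animals, not used here.

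These enzymes write and erase marks on histone tails. Methyltransferases of the KMT2 and SETD1 families methylate H3K4 at promoters and enhancers, NSD enzymes and SETD2 methylate H3K36 over transcribed genes, and KMT5 enzymes methylate H4K20. KDM enzymes remove such methyl groups, and histone deacetylases (HDACs) remove acetyl groups, mostly within corepressor complexes. Several have known roles in blood: KMT2A is the target of MLL translocations and, with menin, keeps HOX genes active in NPM1-mutant leukaemia, and KMT2C and KDM6A are tumour suppressors of myeloid leukaemia.

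The RefSeq table (GRCm38.p6) gives windows of 250 bases before and 50 after a gene start, and 47 such windows, of 33 enzyme genes, were found. Peaks covered part or all of 37 of them in all 8 libraries, 6 in none and 4 in some libraries only. Those of the 4 at Kdm5b, Kdm2b and Hdac7 are printed because a peak over a gene start was missing from one genotype or library there. The Kdm5b window, chr1:134559928-134560227 on the plus strand, had no peak in either DM library. The Kdm2b window, chr5:122988458-122988757 on the minus strand, had none in either Npm1c library. The upstream Hdac7 window, chr15:97844453-97844752 on the minus strand, had none in DM replicate 2. Capitals mark matches to the motifs searched, namely GATAA and GGGCGG in Kdm5b, GGAAGT in Kdm2b and GATAA in Hdac7.
Kdm5b: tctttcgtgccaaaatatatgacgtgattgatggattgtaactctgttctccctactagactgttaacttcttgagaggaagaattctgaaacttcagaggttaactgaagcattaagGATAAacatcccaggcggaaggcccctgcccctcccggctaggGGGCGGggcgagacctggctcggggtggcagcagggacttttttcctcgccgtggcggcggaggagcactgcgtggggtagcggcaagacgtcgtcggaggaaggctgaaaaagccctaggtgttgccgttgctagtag
Kdm2b: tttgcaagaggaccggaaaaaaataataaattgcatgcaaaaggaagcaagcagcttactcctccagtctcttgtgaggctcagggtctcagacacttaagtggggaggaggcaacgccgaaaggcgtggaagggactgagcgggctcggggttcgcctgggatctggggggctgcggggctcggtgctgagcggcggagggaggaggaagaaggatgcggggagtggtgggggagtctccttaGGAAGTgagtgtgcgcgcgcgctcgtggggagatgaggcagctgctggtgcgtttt
Hdac7: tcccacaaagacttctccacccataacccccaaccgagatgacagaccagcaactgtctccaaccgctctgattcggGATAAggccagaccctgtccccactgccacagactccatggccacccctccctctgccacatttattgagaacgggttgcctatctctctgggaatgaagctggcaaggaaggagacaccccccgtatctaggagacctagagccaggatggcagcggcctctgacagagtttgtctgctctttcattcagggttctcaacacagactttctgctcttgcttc
Each is 300 bases, written from 5' to 3' along the gene. They hold 17, 18 and 6 CpG dinucleotides, against a median of 24 over the enzyme gene windows and of 13 over 21045 windows of all protein-coding genes. The fourth window was at Kmt5b, where the missing bases in Npm1c lie at the edge of a peak that stayed (chr19:3767230-3769284, covered over 1565 and 1619 bp in Npm1c and 2055 and 2006 bp in WT).

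List lengths differed between libraries. They held 43825 to 80916 peaks, and the read depth behind them is unknown because the lists hold positions only. Enzyme gene regions called numbered 142 and 169 in the Flt3-ITD libraries (42.9% and 51.1%, against 38.7% and 46.0% of all regions). In DM they numbered 161 and 180 (48.6% and 54.4%, against 50.4% and 58.0%). Npm1c libraries had 188 and 208 (56.8% and 62.8%, against 57.0% and 63.1%), and WT libraries 256 and 213 (77.3% and 64.4%, against 75.4% and 58.2%). Enzyme gene regions made up 0.394% to 0.511% of the covered bases of a library. Peaks covered 24.2 to 33.9 Mb in the 4 libraries with the Flt3-ITD allele and 39.6 to 50.2 Mb in the 4 without. Of the peaks, 1.51% to 1.83% lay on X with the allele and 2.08% to 2.5% without it. How far the widths of single regions follow these totals was not tested. All 10 HSPC markers searched (Kit, Cd34, Gata2, Runx1, Lmo2, Erg, Meis1, Myb, Spi1 and Ptprc) had peaks in every library, over 105 to 142 kb in WT, 117 to 125 kb in Npm1c, 59.0 to 73.4 kb in Flt3-ITD and 71.0 to 79.4 kb in DM. Markers of other lineages were not level between genotypes either. The 8 monocyte and dendritic genes were covered over 55.1 and 74.4 kb in DM, above 24.6 to 40.3 kb in WT, 21.5 to 22.0 kb in Npm1c and 27.6 to 30.0 kb in Flt3-ITD. Of the erythroid genes, 7 of 8 had a region, covered over 6.84 and 6.99 kb in DM against 23.3 to 25.4 kb in WT, 30.5 to 31.1 kb in Npm1c and 10.7 to 17.2 kb in Flt3-ITD, and Hba-a1 had no peak in any library. The neutrophil genes (8 of 9 with a region, Ly6g at 0 in all libraries) were covered over 15.0 to 17.1 kb in DM and 6.51 to 12.4 kb elsewhere. Megakaryocyte genes (5 of 5) were covered over 7.96 to 8.84 kb in DM and 10.8 to 16.2 kb elsewhere, and stroma and endothelial genes (5 of 5) over 9.54 to 13.4 kb in DM and 6.39 to 18.2 kb elsewhere. The B cell genes (3 of 4, Cd79a at 0 in all libraries) were covered over 5.19 to 9.12 kb in DM and 2.28 to 4.0 kb elsewhere, and the T and NK genes (4 of 5, Cd3g at 0 in all libraries) over 5.84 to 6.45 kb in DM and 1.55 to 6.37 kb elsewhere. These shifts move with the genotype comparisons below, and their part in the results was not tested. In such bulk libraries, fewer open cells and less open chromatin per cell cannot be told apart.

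A region was called gained when both libraries of one genotype had a peak in it and neither library of the other did, and lost in the opposite case. With 2 libraries against 2, no single region can pass an exact test, so these are counts beside the share over all 103446 regions. Against WT, Npm1c gained 10 enzyme gene regions (3.02%, against 2.71% of all regions) and lost 33 (9.97%, against 6.26%). Flt3-ITD gained 1 (0.302%, against 0.852%) and lost 52 (15.7%, against 16.2%). DM gained 18 (5.44%, against 6.93%) and lost 78 (23.6%, against 20.9%). Set against Npm1c, DM gained 39 (11.8%, against 12.6%) and lost 62 (18.7%, against 19.3%), and set against Flt3-ITD it gained 26 (7.85%, against 10.6%) and lost 18 (5.44%, against 3.44%). In percentage points, the enzyme genes stood furthest from the genome in the losses of Npm1c against WT. Those losses depend on the setting: with equal list lengths, that is the widest peaks of each library up to the number in the shortest list, 16 regions were lost in Npm1c, with peaks of at least 300 bp 17, and without WT replicate 2, when a peak in 1 WT library is enough, 64. The counts of losses in Flt3-ITD and DM against WT fell to 12 and 43 with equal list lengths, and the single gain in Flt3-ITD became 14. In DM against Flt3-ITD, gains were 10 with equal list lengths and 51 without DM replicate 1, and losses were 37 without Flt3-ITD replicate 1. The shares of all regions under these settings were not computed, so these counts cannot show whether the distance from the genome changed.

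**Figure D1:**
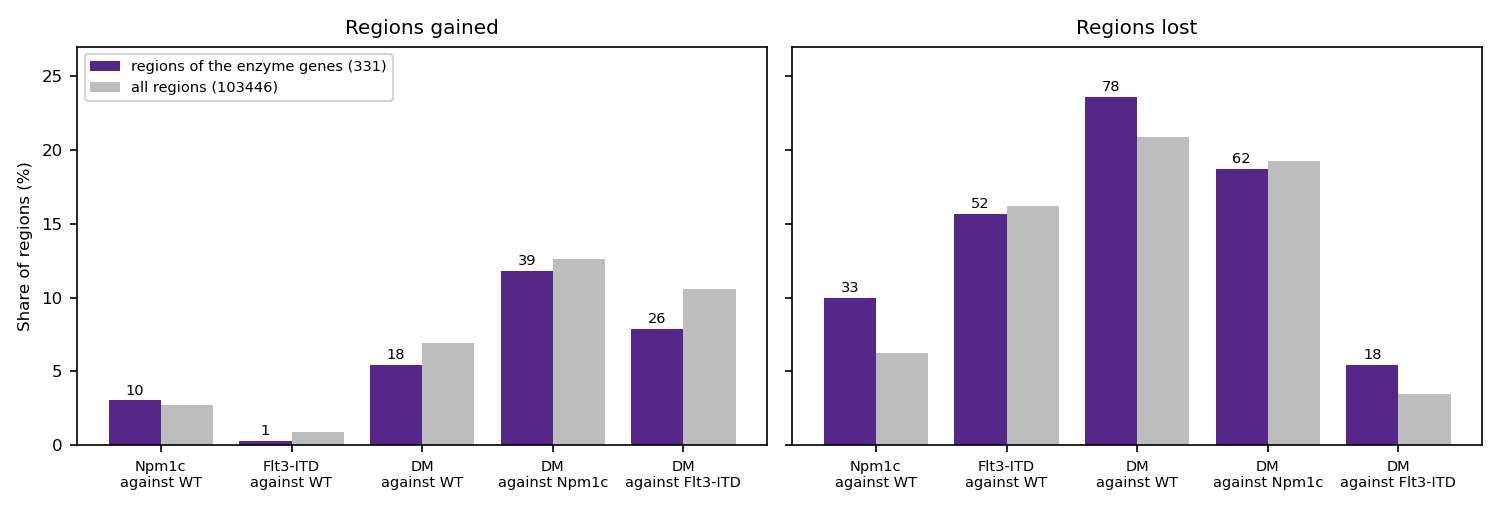
Share of regions gained (left) and lost (right) in 5 genotype comparisons, in percent, for the 331 regions of the enzyme genes (purple, with the number of regions above each bar) and all 103446 regions (grey). The purple and grey bars stand close together in most comparisons, and losses in Npm1c against WT (9.97% and 6.26%) are furthest apart in ratio among the losses against WT.

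By gene, Npm1c against WT gained 3 of 8 regions at Kdm4c and 2 of 13 at Kdm6a, and lost 6 of 23 at Kdm2b and 2 each at Hdac5 (of 5), Kmt2a (of 5), Kdm2a (of 6), Kmt5b (of 6) and Setd4 (of 11). Flt3-ITD against WT lost 5 of 7 at Kmt2c, 4 of 17 at Nsd3 and 3 each at Hdac8 (of 6), Kdm8 (of 6), Kdm6a (of 13) and Hdac4 (of 22). DM against WT gained 3 of 13 at Kdm7a and 3 of 22 at Hdac4, and lost 7 at Nsd3, 5 at Kmt2c and 4 each at Kdm5b, Kdm8, Kdm7a and Kdm2b. Compared with Npm1c, DM gained 7 at Kdm2b, 5 at Hdac4, 4 at Kdm7a, 3 at Setd4, 3 of 12 at Kdm4b and 2 at Kdm2a. There it lost 6 each at Kdm6a and Nsd3, 5 each at Kdm5b and Kdm4c, 4 at Kmt2c and 3 of 6 at Kmt5c. Compared with Flt3-ITD, DM gained 4 each at Hdac9 and Hdac4 and 2 each at Setd3 and Kdm7a, and lost 3 at Nsd3 and 2 of 10 at Setd7. Genes with many regions can hold more changes: the losses at Hdac4 in Flt3-ITD and at Kdm2b in DM against WT are smaller shares of their regions than the shares of all regions lost. Gains of Kdm7a in DM against WT were 6 without DM replicate 1, those of Hdac4 6 without WT replicate 1 or DM replicate 1, and those of Hdac9 and Hdac4 against Flt3-ITD 8 and 7 without DM replicate 1. Losses of Nsd3 were 7 in Flt3-ITD against WT without WT replicate 2, and 10 in DM against Npm1c without Npm1c replicate 1.

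Changes lay mostly away from gene starts, at the enzyme genes as over all regions. Of 36 enzyme gene regions that overlapped a RefSeq start window, 33 (91.7%) were called in all 8 libraries, as were 82.3% of all such regions. Elsewhere in the gene bodies it was 38 of 211 (18.0%) and outside genes 17 of 84 (20.2%), beside 18.6% and 19.5% of all regions in those places. Enzyme gene regions called in all 8 libraries had a median width of 1560 bp, and those lost in DM against WT one of 411 bp. Over all regions the same medians were 1000 bp and 447 bp. Of the 78 losses in DM, 56 lay inside genes away from a start, 21 outside genes and 1 at a start, the start of Kdm5b. They were 26.5%, 25.0% and 2.78% of the enzyme gene regions in those places, against 24.4%, 20.5% and 4.0% of all regions there. No start region of an enzyme gene was gained in DM against WT, where 0.77% of all start regions were. None was gained or lost in Flt3-ITD against WT, against 0.166% and 3.63% of all start regions. Shares this small leave little to count among 36 regions. The starts of 14 enzyme genes, among them Nsd1, Nsd2, Nsd3, Kdm6b and Hdac1, have no window in the table. A region over such a start counts by its midpoint as inside or outside the gene, as at Nsd2 (outside), unless it meets a window of another gene, as at Kdm5a. Both windows of Setd3 lie in a region whose midpoint belongs to the neighbour Ccnk, so the values of Setd3 leave its own start out.

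**Figure D2:**
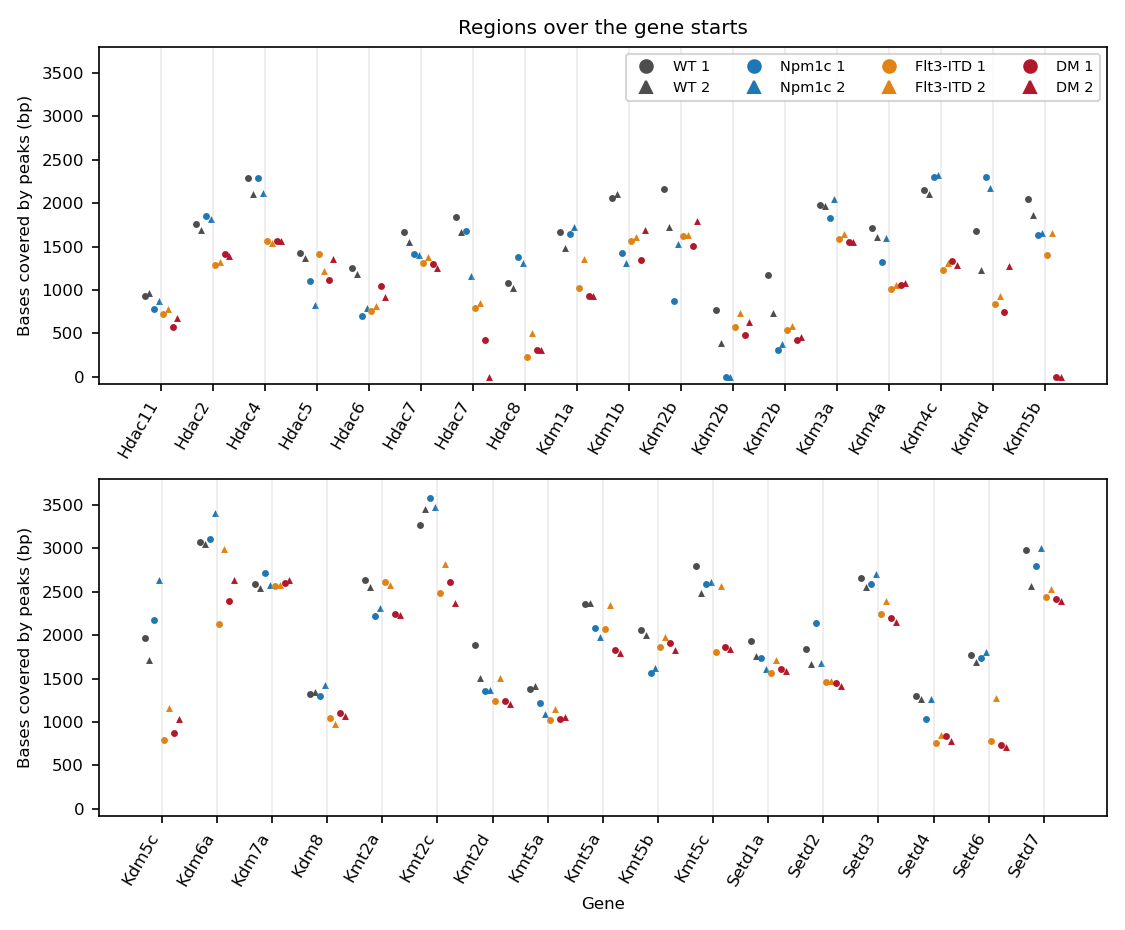
Bases covered by peaks (vertical axis, bp) in the region over each RefSeq start of the enzyme genes (horizontal axis), with 1 point per library, circles for replicate 1 and triangles for replicate 2. The Setd3 start is shown though its region belongs to Ccnk. Most starts keep 500 bp or more in every library, while Kdm5b is at 0 bp in both DM libraries and a Kdm2b start is at 0 bp in both Npm1c libraries.

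Among the H3K4 methyltransferases and their relatives (8 genes, 51 regions), 14 regions were lost in DM against WT (27.5%, against 20.9% of all regions), 8 in Flt3-ITD (15.7%, against 16.2%) and 4 in Npm1c (7.84%, against 6.26%). Kmt2c, the enhancer H3K4 monomethyltransferase MLL3, lost most in Flt3-ITD, with 5 of its 7 regions gone in Flt3-ITD and the same number in DM. All 5 lay inside the gene, and the gene table used does not part introns from exons. One of them, chr5:25420599-25421011, was covered over 367 and 305 bp in WT, 387 and 352 bp in Npm1c and 0 bp in all 4 libraries with the Flt3-ITD allele. The start of Kmt2c was called throughout, over 3267 and 3449 bp in WT, 3584 and 3473 bp in Npm1c, 2485 and 2815 bp in Flt3-ITD and 2608 and 2372 bp in DM. It was narrower in the 4 libraries with the allele than in the 4 without, with no overlap. The starts of Hdac2 and Hdac4 and the total covered length of the libraries split the same way. The lost regions were narrow, and with equal list lengths no region of Kmt2c was lost in either genotype, or 1 with peaks of at least 300 bp. Kmt2a, the MLL gene, kept a start region of 2216 to 2641 bp in all libraries, while a region inside it, chr9:44861560-44862715, was covered over 1096 and 688 bp in WT, 664 bp in Flt3-ITD replicate 2 and 0 bp in the other 5 libraries. Kmt2e, which binds H3K4me3 and has no known methyltransferase activity, held the most regions of the class, 11, and Setd1a the fewest, 1, called in all libraries over 1558 to 1933 bp. At Kmt2e the region chr5:23444184-23444932 was covered over 566 and 502 bp in WT and 701 and 671 bp in Npm1c, and over 0 bp in each library with the Flt3-ITD allele. Setd7, an H3K4 monomethyltransferase, showed a graded loss at chr3:51552823-51554825 inside the gene, with 1783 and 1523 bp in WT, 1848 and 1395 bp in Npm1c, 205 and 715 bp in Flt3-ITD and 0 bp in DM.

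Of the H3K36 methyltransferases (4 genes, 35 regions), Nsd3 changed most. NSD3 adds methyl groups to H3K36. It had 17 regions. WT libraries had peaks in 13 and 12 of them, Npm1c libraries in 10 and 14, Flt3-ITD libraries in 4 and 6, and DM libraries in 3 and 4. DM lost 7 of them against WT, 6 against Npm1c and 3 against Flt3-ITD, though 0 of the last with at least 50% of a region required for a call. The region chr8:25716666-25717963 was covered over 1118 and 1125 bp in WT, 1063 and 1070 bp in Npm1c, 236 and 778 bp in Flt3-ITD and 0 bp in both DM libraries. Another, chr8:25619482-25621189, went from 1033 and 1150 bp in WT and 1469 and 1097 bp in Npm1c to 466 and 832 bp in Flt3-ITD and 0 bp in DM. Both show the same order, with Flt3-ITD between WT and DM. The widest Nsd3 region, chr8:25601061-25603842, was called everywhere over 1702 to 2713 bp. Flt3-ITD lost 4 regions of Nsd3 against WT, and 1 with equal list lengths. Nsd2 had the fewest regions of the class, 3, and Setd2 lost chr9:110541941-110542381 (400 and 391 bp in WT, 347 and 306 bp in Npm1c) in each library with the Flt3-ITD allele.

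The H4K20 methyltransferases (3 genes, 16 regions) gained 0 regions in the 5 comparisons, where 0.852% to 12.6% of all regions were gained, and lost 5 in DM against WT (31.2%, against 20.9%). Kmt5a, which places the first methyl group, kept 3 of its 4 regions in all libraries. Kmt5b and Kmt5c, which add further ones, had 6 regions each. The widest region beyond the Kmt5c gene, 356 bp from it at chr7:4747058-4748683, was covered over 1626 and 1294 bp in WT, 1210 and 1282 bp in Npm1c, 647 and 1278 bp in Flt3-ITD and 205 and 0 bp in DM.

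The other SET domain genes (4 genes, 29 regions) diverged from each other. Setd4 had the most regions, 11, and Setd6, whose enzyme methylates the NF-kB subunit RELA, the fewest, 2. The region of Setd4 at chr16:93585049-93586839 was covered over 1513 and 1409 bp in WT, 567 and 846 bp in Npm1c, 1086 and 1182 bp in Flt3-ITD and 1693 and 1716 bp in DM, so that Npm1c was lowest and DM highest with no overlap between genotypes. The Setd6 start was covered over 1766 and 1691 bp in WT, 1742 and 1801 bp in Npm1c, 777 and 1278 bp in Flt3-ITD and 732 and 710 bp in DM. Setd3, an actin histidine methyltransferase, had 2 regions gained in DM against Flt3-ITD and no region called in all libraries beyond chr12:108170417-108171120 (305 to 624 bp).

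The clearest single change was at Kdm5b, among the H3K4 demethylases (5 genes, 15 regions). KDM5B, or JARID1B, removes the di- and trimethyl marks of H3K4. All 6 of its regions lacked a peak in both DM libraries, while WT libraries had peaks in 5 and 4, both Npm1c libraries in 5, and Flt3-ITD libraries in 1 and 3. The start region, chr1:134559772-134561823, was covered over 2051 and 1861 bp in WT, 1639 and 1662 bp in Npm1c, 1401 and 1661 bp in Flt3-ITD and 0 bp in both DM libraries. A region inside the gene, chr1:134614588-134615538, had 816 and 798 bp in WT, 701 and 834 bp in Npm1c, 0 and 619 bp in Flt3-ITD and 0 bp in DM. Beyond the gene end, chr1:134636640-134637139 was called in the 4 libraries without the Flt3-ITD allele, over 336 to 500 bp, and in none with it. Upstream of the start region by 2387 bp, a region of the neighbour Mgat4e stayed called in DM, over 970 and 847 bp, against 1572 and 1608 bp in WT, 1202 and 1384 bp in Npm1c and 1060 and 1077 bp in Flt3-ITD. The Kdm5b start region also lies in Mgat4e. Some neighbouring regions lacked a peak in both DM libraries too, among them chr1:134651603-134652107 of Syt2, covered over 200 to 505 bp elsewhere. Another of Mgat4e, chr1:134526671-134527437, had 200 and 0 bp in DM and 533 to 767 bp elsewhere. Others, such as chr1:134518589-134519114 of Rabif and chr1:134679362-134680066 of Syt2, were called in every library.

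The share of regions with such an absence depends on the width asked for. Of 13261 regions covered over at least 500 bp in each of the 6 other libraries, 294 (2.22%) had no peak in both DM libraries. Of 5463 regions covered there over at least 1000 bp it was 10 (0.183%), and of 2553 regions at 1400 bp or more, 3 (0.118%). With the same limit of 1000 bp, no region was missing from both WT (of 4765), both Npm1c (of 5067) or both Flt3-ITD libraries (of 5253). Counted by gene, 6 of 5533 genes with at least 1400 bp in each of the other 6 libraries had no covered base in DM, namely Abcg4, Epha4, Kdm5b, Lrrc29, Myl9 and Phyhip. By gene it was 22 of 11255 (0.195%) at 500 bp. The limits were chosen after the Kdm5b values were seen, and 1400 bp lies just under its lowest value in the other 6 libraries, 1401 bp. The total over the gene was 4848 and 3984 bp in WT, 3760 and 3903 bp in Npm1c, 1401 and 2711 bp in Flt3-ITD and 0 bp in DM. A peak list holds only what passed the caller's threshold, so 0 bp is the absence of a called peak and not a measured level of 0.

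The other H3K4 demethylases kept their starts. Kdm1a, which encodes LSD1, a demethylase of the CoREST complex, was covered at its start over 1668 and 1482 bp in WT, 1648 and 1728 bp in Npm1c, 1017 and 1356 bp in Flt3-ITD and 929 and 925 bp in DM. Kdm1b, Kdm5a and Kdm5c had the fewest regions of the class, 2 each. The start of the X-linked Kdm5c was covered over 1962 and 1711 bp in WT, 2170 and 2640 bp in Npm1c, 796 and 1155 bp in Flt3-ITD and 874 and 1035 bp in DM. The 4 libraries with the Flt3-ITD allele all lay below the 4 without it, as they did in total covered length and in the share of peaks on X.

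**Figure D3:**
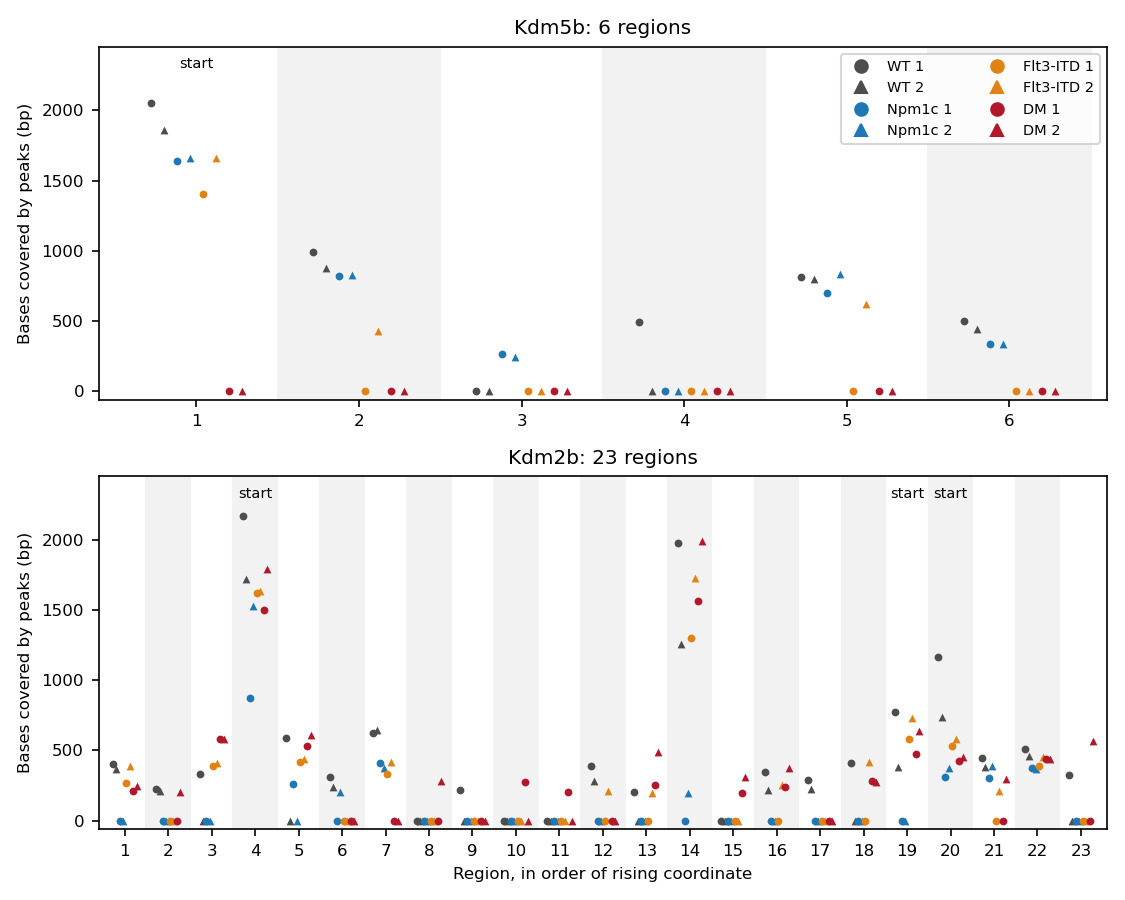
Bases covered by peaks (vertical axis, bp) in each region of Kdm5b (top) and Kdm2b (bottom), in order along the chromosome, with 1 point per library, circles for replicate 1 and triangles for replicate 2, and "start" over regions that overlap a RefSeq start window. DM is at 0 bp in all 6 regions of Kdm5b, and the Npm1c libraries are at 0 bp in many regions of Kdm2b that the other genotypes cover.

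Demethylases of H3K36 and H3K9 (10 genes, 85 regions) held the gene that changed most in Npm1c. KDM2B demethylates H3K36 and brings a variant Polycomb complex to CpG islands. Of its 23 regions, the most of the class, WT libraries had peaks in 19 and 13, Npm1c libraries in only 6 and 7, Flt3-ITD libraries in 9 and 14, and DM libraries in 14 and 16. Npm1c lost 6 of them against WT (3 with equal list lengths or with peaks of at least 300 bp, and 11 without WT replicate 2), and DM gained 7 against Npm1c (4 with either setting). A region inside the gene, chr5:122950555-122952638, was covered over 1979 and 1259 bp in WT, 0 and 200 bp in Npm1c, 1301 and 1729 bp in Flt3-ITD and 1564 and 1993 bp in DM. Both Npm1c libraries lay far below the other 6. The start region whose window is printed above, chr5:122987993-122988818, was covered over 772 and 384 bp in WT, 0 bp in both Npm1c libraries, 578 and 731 bp in Flt3-ITD and 475 and 635 bp in DM. Next to it, chr5:122988871-122990037 was narrowest in Npm1c, over 309 and 378 bp, against 1167 and 736 bp in WT. The widest start of Kdm2b, chr5:122898893-122901059, was called in all libraries, over 875 and 1526 bp in Npm1c and 1502 to 2167 bp elsewhere. DM, which carries the same Npm1c allele, was covered in both regions that the Npm1c libraries lacked or nearly lacked.

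Kdm4c, an H3K9 and H3K36 trimethyl demethylase, went the other way in Npm1c. It gained 3 regions there against WT (1 with peaks of at least 300 bp), among them chr4:74280047-74280623, over 425 and 469 bp in Npm1c and 0 bp in the other 6 libraries. Its start was covered over 2153 and 2101 bp in WT, 2301 and 2329 bp in Npm1c, 1230 and 1316 bp in Flt3-ITD and 1339 and 1283 bp in DM. Kdm7a, a demethylase of H3K9 and H3K27, held the single region of the family called only with the Flt3-ITD allele, chr6:39259163-39259581, which lies 52599 bp from the gene. It was covered over 215 and 231 bp in Flt3-ITD, 337 and 419 bp in DM and 0 bp in the other 4 libraries. In DM against WT, Kdm7a gained 3 regions, all outside the gene, and lost 4, while its start stayed at 2539 to 2714 bp in every library. Kdm8 lost 4 of its 6 regions in DM, of which chr7:125428191-125429203, 15923 bp from the gene, had 942 and 895 bp in WT, 1006 and 1003 bp in Npm1c, 240 and 757 bp in Flt3-ITD and 0 bp in DM. Kdm4d had the fewest regions of the class, 2, and its start was widest in Npm1c, over 2299 and 2177 bp, against 1674 and 1227 bp in WT, 840 and 930 bp in Flt3-ITD and 742 and 1280 bp in DM.

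The H3K27 demethylases Kdm6a and Kdm6b (18 regions) differed from each other. Kdm6a, the X-linked UTX gene, had 13 regions. WT libraries had peaks in 9 and 6, Npm1c libraries in 11 and 13, Flt3-ITD libraries in 1 and 3, and DM libraries in 2 and 5. Its start was called throughout, over 2131 to 3409 bp, and the changes lay inside the gene. Inside the gene, chrX:18166890-18167401 was covered over 512 and 229 bp in Npm1c and 0 bp in the other 6 libraries. DM lost 6 regions of Kdm6a against Npm1c, and 2 with equal list lengths. Kdm6b, the inducible JMJD3 gene, kept 4 of its 5 regions in all libraries. The fifth, chr11:69413204-69414467 inside the gene, was the only enzyme gene region with a complete pattern for the Npm1c allele: 1264 and 605 bp in WT, 317 and 556 bp in Flt3-ITD, and 0 bp in the 4 Npm1c and DM libraries.

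Of the class I deacetylases (4 genes, 11 regions), the X-linked Hdac8, which deacetylates the cohesin subunit SMC3, was the most changed. Its start was covered over 1078 and 1022 bp in WT, 1374 and 1315 bp in Npm1c, 227 and 501 bp in Flt3-ITD and 310 and 308 bp in DM, with every library carrying the Flt3-ITD allele below every library without it. Total covered length and the share of peaks on X split the libraries the same way. Hdac8 had 6 regions, of which Flt3-ITD lost 3 against WT. Hdac3 had the fewest, 1, called in Npm1c replicate 1 alone. The widest region of Hdac1 was called in all libraries, over 1571 and 1426 bp in WT, 1173 and 1376 bp in Npm1c, 997 and 1386 bp in Flt3-ITD and 754 and 734 bp in DM. A peak downstream of Hdac2, 12568 bp from the gene, was covered over 323 to 351 bp in the 4 libraries without the Flt3-ITD allele and absent from the 4 with it.

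Class IIa deacetylases (4 genes, 59 regions), which bind MEF2 factors and move out of the nucleus on signalling, gained 4 regions in DM against WT (6.78%, against 6.93% of all regions) and 8 against Npm1c (13.6%, against 12.6%). Hdac4 had the most regions, 22. WT libraries had peaks in 15 and 11, the Npm1c and the Flt3-ITD libraries each in 9 and 10, and DM libraries in 15 and 17. DM gained 3 against WT, 5 against Npm1c and 4 against Flt3-ITD. With equal list lengths the counts were 1 against WT and 1 against Flt3-ITD. One of the gains, chr1:92253054-92253528, 57589 bp from the gene, was covered over 321 and 475 bp in DM and 0 bp in the other 6 libraries. At chr1:92216204-92217567 DM had 1250 and 1364 bp, above 780 to 908 bp in the other 6. Hdac9 gained 4 of its 18 regions in DM against Flt3-ITD, with chr12:34725199-34725564 over 307 and 357 bp in DM and 0 bp elsewhere. Hdac5 had the fewest regions, 5, and its chr11:102207801-102209311 was covered over 1272 and 699 bp in WT, 0 bp in both Npm1c libraries, 1378 and 1358 bp in Flt3-ITD and 1437 and 1511 bp in DM. As at Kdm2b, the loss in Npm1c was not seen in DM. Hdac7 lost breadth at its upstream start, chr15:97843232-97845266, with 1841 and 1671 bp in WT, 1682 and 1161 bp in Npm1c, 794 and 850 bp in Flt3-ITD and 427 and 0 bp in DM. The other Hdac7 start was called over 1255 to 1669 bp in all libraries. Among class IIb and IV genes (3 genes, 12 regions), Hdac11 had the most regions, 8, and Hdac6 and Hdac10 the fewest, 2 each.

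The 4 libraries with the Flt3-ITD allele were also set against the 4 without it. Of the enzyme gene regions, 18 (5.44%, against 8.38% of all regions) were called in all 4 libraries without the allele and in none with it, at 13 genes, and 1 (0.302%, against 0.566%) in all 4 with it and none without. For the Npm1c allele, 1 enzyme gene region was called only without it (0.302%, against 0.204%) and 0 only with it (against 0.156%). A two-sided Fisher exact test gives such a region p = 0.0286, the smallest it can give, and after Benjamini-Hochberg adjustment over all regions 0.32 (Flt3-ITD) and 1 (Npm1c), so 0 regions passed. At the unadjusted level 19 enzyme gene regions passed for Flt3-ITD and 1 for Npm1c. The 18 regions were 4 at Kmt2c, 2 each at Kdm4c and Kdm6a and 1 each at Kdm3a, Kdm5b, Kmt2e, Nsd3, Setd2, Setd5, Setd7, Hdac2, Hdac7 and Hdac8. All were narrow, the widest 749 bp, and with equal list lengths 5 enzyme gene regions had the pattern.

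The length covered by peaks over all regions of a gene gave a value per gene that could be tested. It was compared on the scale log2(bp + 500), with each library centred on its median over 13653 genes of at least 500 bp on average, by limma with Benjamini-Hochberg adjustment over those genes. Differences on this scale understate the change of genes with little coverage. Of 46 enzyme genes tested, Hdac3 not among them, 5 were higher (15.8% of all genes) and 9 lower (17.2%) in Npm1c against WT at an adjusted p under 0.05. In Flt3-ITD against WT 8 were higher (12.8%) and 5 lower (16.3%), and in DM against WT 7 were higher (22.6%) and 16 lower (23.5%). In DM, 16 were higher (30.9%) and 17 lower (30.3%) than in Npm1c, and 4 higher (15.5%) and 11 lower (12.1%) than in Flt3-ITD. The median over the enzyme genes was -0.03, 0.07, -0.02, 0.03 and -0.15 in these 5 comparisons, against 0.02, 0.02, 0.03, 0.02 and -0.02 over all genes. Centring sets the balance of these calls: without it the median of all genes moved to -0.13, -0.51, -0.41, -0.27 and 0.08, and 1 and 10, 0 and 21, 0 and 25, 5 and 22, and 2 and 1 enzyme genes were higher and lower. Scaling to the total covered length instead left 13 higher and 3 lower in Flt3-ITD against WT, and 4 and 19 in DM against Flt3-ITD.

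**Figure D4:**
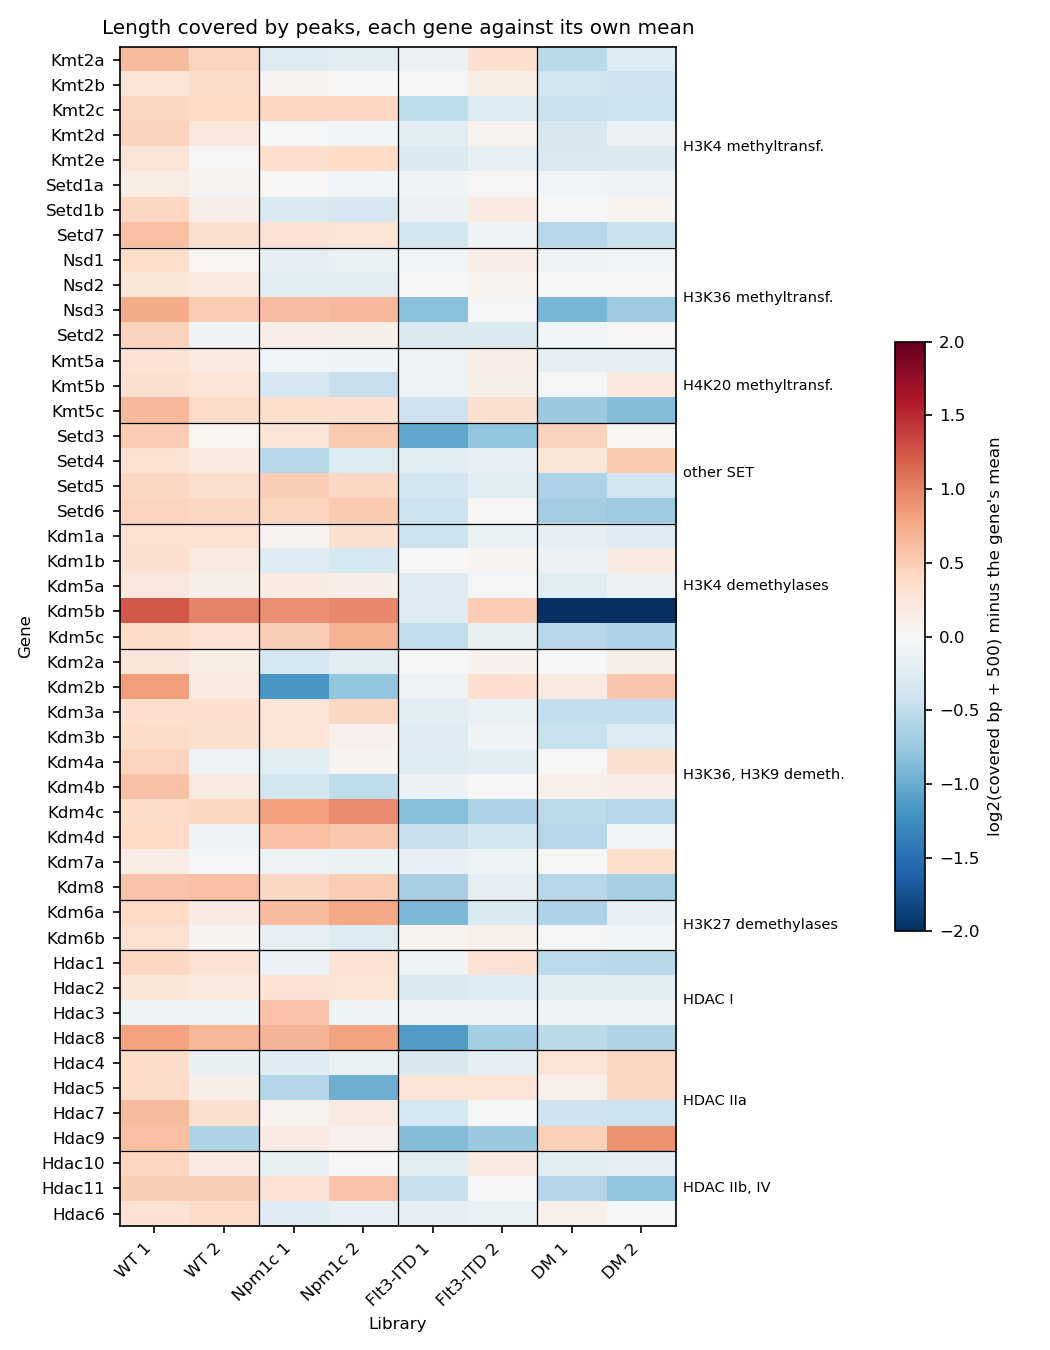
Log2(covered bp + 500) of each enzyme gene (rows, by class) in each library (columns), minus the mean of the gene over the 8 libraries, with no centring of libraries, on a colour scale from blue (-2 and below) to red (2). The darkest cells are those of Kdm5b in both DM libraries, and Kdm2b is lowest in the Npm1c libraries.

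In Npm1c against WT, Kdm2b changed most and fell by 1.34 on the log2 scale (SE 0.17, adjusted p = 0.00089). Its totals were 11720 and 7126 bp in WT, 2528 and 3439 bp in Npm1c, 5824 and 8069 bp in Flt3-ITD and 7180 and 9560 bp in DM. Hdac5 fell by 0.88 (SE 0.16, adjusted p = 0.0031), Kdm4b, an H3K9 demethylase, by 0.68 and Kmt2a by 0.63. With only the regions inside the gene Kmt2a was at -1.41. Kmt5b, Setd4 and Setd1b fell by 0.55, 0.52 and 0.44, and their calls were each lost without 1 library or another, for Kmt5b and Setd1b without Npm1c replicate 2, for Kmt5b also with only the regions inside the gene (-0.16), and for Setd4 without WT replicate 2 or Npm1c replicate 1. Kdm4c rose by 0.62 (SE 0.12, adjusted p = 0.0042), with totals of 3584 and 3666 bp in WT and 4984 and 5509 bp in Npm1c. The calls of the rises of the X-linked Kdm6a (0.57) and of Kdm4d (0.56) were lost without centring and without WT replicate 2 or either Npm1c library. That of Kdm6a was also lost without WT replicate 1 and with equal list lengths. Genes on X as a whole had a median difference of 0.20 here, over 404 tested.

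In Flt3-ITD against WT, Hdac8 changed most and fell by 1.10 (SE 0.13, adjusted p = 0.00081), a call lost with equal list lengths. Its totals were 2296 and 2020 bp in WT, 2073 and 2283 bp in Npm1c, 227 and 501 bp in Flt3-ITD and 599 and 553 bp in DM. Setd3 fell by 0.66, Kdm4c by 0.60 (SE 0.12, adjusted p = 0.0069), Nsd3 by 0.53 and Kdm8 by 0.47. The call of Kdm4c was lost with only the regions inside the gene, and those of Setd3, Nsd3 and Kdm8 with equal list lengths and without Flt3-ITD replicate 1. Nsd3 was at -0.24 without that library, and its call was also lost without either WT library, that of Setd3 without WT replicate 1 or Flt3-ITD replicate 2 and that of Kdm8 without WT replicate 2. The median of X genes was -0.13. Rises of Hdac5 (0.56), Kdm6b (0.45), Setd1a (0.40), Nsd1 (0.38) and Kdm2a (0.37) rest on centring: without it Hdac5 was at 0.02, and the other 4 turned to -0.09, -0.14, -0.16 and -0.16, with no call. All 5 calls were also lost without Flt3-ITD replicate 1, and each without WT replicate 1 or WT replicate 2.

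In DM against WT, Kdm5b had the lowest value, with an adjusted p of 1.0e-05 by limma. With 0 bp in both DM libraries its log2 difference depends on the 500 bp added, and no fold is given. Nsd3 fell by 1.02 (SE 0.16, adjusted p = 0.001), with totals of 8832 and 7411 bp in WT, 8073 and 8296 bp in Npm1c, 2607 and 4914 bp in Flt3-ITD and 2442 and 2871 bp in DM. Kmt5c fell by 0.88 and Kdm8 by 0.77, calls lost with only regions inside the gene, Hdac8 by 0.87, a call lost with equal list lengths, Hdac11 by 0.75 and Setd6 by 0.71. Hdac11 was at -0.49 with only regions inside the gene. Hdac9 rose by 1.13 (SE 0.26, adjusted p = 0.0059), with totals of 3124 and 1064 bp in WT, 2176 and 2033 bp in Npm1c, 810 and 922 bp in Flt3-ITD and 2829 and 3968 bp in DM. The WT and DM libraries overlapped, and the value was 0.64 without WT replicate 2. Hdac4 rose by 0.65 (SE 0.11, adjusted p = 0.0013) and Setd4 by 0.58. All 3 rises lost their call without centring, where they were at 0.70, 0.22 and 0.145, and that of Setd4 also with only the regions inside the gene. The monocyte and dendritic, neutrophil and B cell markers were higher and the erythroid markers lower in the same libraries, as given above, and their part was not tested.

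**Figure D5:**
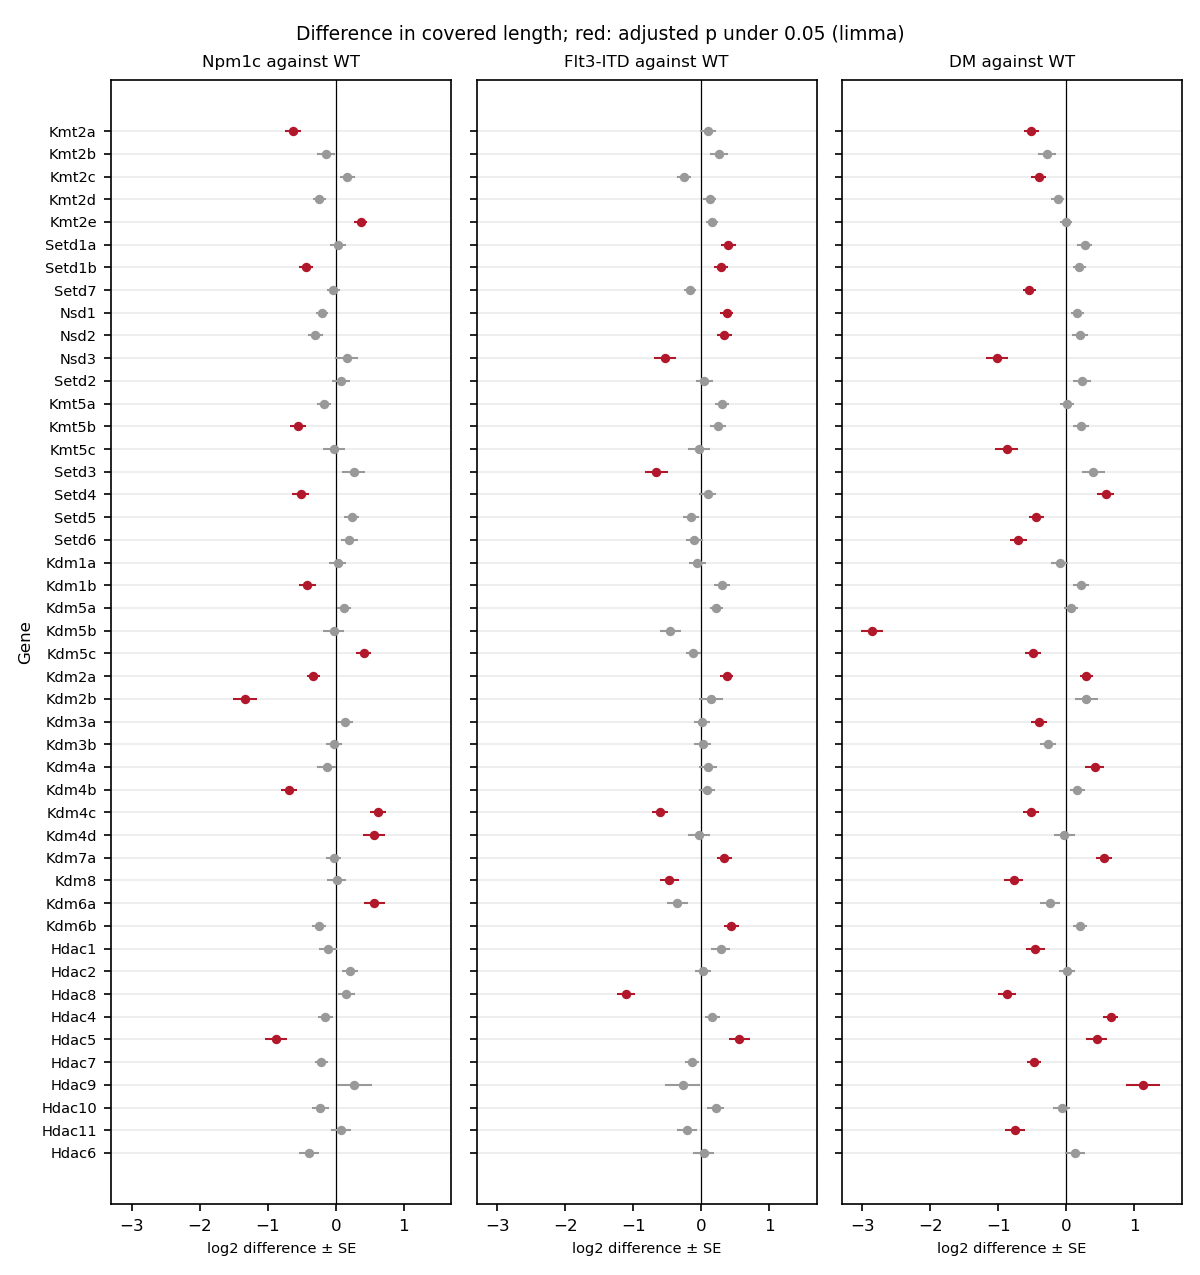
Difference in log2(covered bp + 500), centred, for each enzyme gene tested (rows) in Npm1c, Flt3-ITD and DM against WT (panels), as points with 1 standard error, red where the adjusted p by limma was under 0.05. Kdm5b in DM stands furthest from 0, followed by Kdm2b in Npm1c, Hdac9 in DM and Hdac8 in Flt3-ITD.

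In DM against Npm1c, Kdm2b rose by 1.63 (SE 0.17, adjusted p = 4.1e-05), Hdac5 by 1.32 (SE 0.16, adjusted p = 7.2e-05) and Setd4 by 1.09 (SE 0.12, adjusted p = 5.2e-05), or 0.67 with only the regions inside the gene. Kdm5b was lowest again (adjusted p = 2.9e-06), and other genes fell, Nsd3 to -1.18, Kdm4c to -1.15, Hdac8 to -1.03, Setd6 and Kdm5c to -0.90 each and Kmt5c to -0.86, the last call lost with only regions inside the gene. In DM against Flt3-ITD, Kdm5b had an adjusted p of 6.0e-05. Hdac9 rose by 1.39 (SE 0.26, adjusted p = 0.0041), Setd3 by 1.05, a call lost with equal list lengths, and Hdac4 by 0.49, a call lost without centring, with equal list lengths and without Flt3-ITD replicate 2 or DM replicate 2. Kmt5c (-0.85), Hdac1 (-0.75), Kmt2a (-0.62), Setd6 (-0.61), Kmt2b (-0.55) and Hdac11 (-0.54) fell, and all 6 lost their call without centring. With only the regions inside the gene, Kmt5c lost its call too, at -0.29, and Kmt2a was at -1.18, and with equal list lengths Setd6 was at -0.34. The calls of Setd6, Kmt2b and Hdac11 were also lost without Flt3-ITD replicate 2, those of Kmt2b and Hdac11 without DM replicate 2 and that of Kmt2b without Flt3-ITD replicate 1. The 3 comparisons of DM share its libraries, and those of DM against Npm1c and of Npm1c against WT share the Npm1c libraries.

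The 2 alleles together were tested as an interaction, the difference of DM from Flt3-ITD minus that of Npm1c from WT. Of the 46 enzyme genes, 8 had a higher value (15.3% of all genes) and 9 a lower one (12.5%) than the sum of the single alleles gives, with a median of -0.10 against -0.01 over all genes. Without centring it was 6 and 1, and the median of all genes moved to 0.24. Kdm2b, at 1.49 (SE 0.25, adjusted p = 0.0035), and Setd4, at 1.0 (SE 0.17, adjusted p = 0.004), kept their calls in every alternative run, as did Kdm5b.

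Other genes of the same pathways, 70 in all, were counted by the same rule, and 69 of them had 518 regions, 142 called in all 8 libraries. Of 68 tested in covered length against WT, Npm1c had 8 higher and 15 lower, Flt3-ITD had 12 higher and 6 lower, and DM had 5 higher and 14 lower, beside the shares of all genes given above. Against WT they lost 39 regions in Npm1c (7.53%, against 6.26% of all regions), 90 in Flt3-ITD (17.4%, against 16.2%) and 151 in DM (29.2%, against 20.9%). They gained 8 (1.54%, against 2.71%), 2 (0.386%, against 0.852%) and 22 (4.25%, against 6.93%). In Npm1c, Jarid2, a partner of the Polycomb repressive complex, lost 6 of 23 and Prdm16 3 of 24. In Flt3-ITD the H3K4 methyltransferase gene Smyd3 lost 9 of 27, Jmjd1c 8 of 28, Kat6b 7 of 14 and Tbl1xr1, Prdm16 and Jarid2 7 each. In DM Smyd3 lost 14, Jmjd1c 11 and Tbl1xr1 10. Gains in DM were led by Prdm16 with 5 and Wdr5, a core subunit of KMT2 complexes, with 3. Set against Npm1c, DM gained 5 regions each at Wdr5 and Prdm16 and lost 13 at Smyd3, 11 at Tbl1xr1 and 9 at Jmjd1c. Coverage of Wdr5 was 3918 and 2716 bp in WT, 1702 and 1862 bp in Npm1c, 2423 and 3147 bp in Flt3-ITD and 3536 and 4303 bp in DM.

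Motifs were searched on both strands of the start windows, where a match is a description and no binding site. GGGCGG, a GC box, was in 63.8% of the 47 enzyme gene windows and 46.7% of all 21045 windows, and CCAAT in 42.6% and 38.5%. GGAAGT was in 8.51% against 25.0%, GATAA in 17.0% against 22.5%, TGTGGT in 14.9% against 14.7% and TATAAA in 4.26% against 12.7%. The remaining shares were 10.6% against 4.69% for TGACTCA, 10.6% against 7.76% for TTCNNNGAA, 6.38% against 7.91% for CACGTG and 0 windows against 2.26% for TGACGTCA. Windows of one gene can overlap and are not independent. No motif of the list contains another, though matches can share bases.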

How the data were processed

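ATAC-seq peaks of 8 HSPC libraries were analysed. Reads were aligned with Bowtie2 to mm10 and peaks called with MACS2, per the submitters' processing notes, with no version given in the sources used here. Each library has 1 list as deposited, which holds only the chromosome, start and end of each peak, with no score, signal or read count, so depth is unknown and precision rests on the 2 libraries per genotype. The values computed from them are the presence of a peak in a merged region and the bases covered by peaks, summed per gene.

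Covered length was tested with limma 3.58.1 (R 4.3.3; trend, all 4 genotypes in 1 fit, 500 bp added before log2, genes of at least 500 bp on average, each library centred on its median, Benjamini-Hochberg over 13653 genes). The code was first run on simulated lengths with independent spread, without absent peaks or lists of unequal length. That run checked the code and does not measure error rates in these data. Gene names and positions came from the RefSeq table of GRCm38.p6, and start windows from RefSeq. A midpoint inside overlapping genes was given to each of them. Tables were handled in Python 3.11.15 with pandas 2.3.3.

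The genes named were those with the most and fewest regions of each class, the most gained or lost regions, the allele patterns and the largest called differences in covered length, with regions of Kdm5b and Kdm2b in full. Single regions of other genes were chosen after their values were seen. Members and lists were chosen with earlier results of these data known. Differences between replicates were weakly correlated between genotypes (r from -0.182 to 0.093 over 6 pairs of genotypes). This cannot show whether libraries with the same replicate number share a batch, which the labels used here do not give. The main fit did not pair them. Alternatives were other list lengths, merging gaps, peak widths, gene distances, scalings, added bp, filters, a replicate block and leaving out each library. One gene of the other pathway genes is not reported here by name.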

Additional observations from a re-analysis of the deposited data

Results flagged for a closer look

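The interaction of the 2 alleles, the difference of DM from Flt3-ITD minus that of Npm1c from WT in log2 covered length, had an adjusted p under 0.05 by limma at 17 enzyme genes. Of the 46 tested, 8 lay above 0 and 9 below, beside 15.3% and 12.5% of all genes. At these genes the value of DM differed from the sum of the single alleles on this centred scale. Without centring 6 and 1 enzyme genes were called. Above 0 were Kdm2b at 1.49, Hdac9 at 1.12, Setd4 at 1.0, Setd3 at 0.79, Hdac5 at 0.77, Kdm4b at 0.76, Hdac4 at 0.64 and Kmt5b at 0.53. Below 0 were Kdm5b, Kmt5c at -0.83, Setd6 at -0.8, Kdm5c at -0.78, Hdac1 at -0.63, Kdm3a at -0.55, Kdm4c at -0.55, Kmt2e at -0.54 and Setd5 at -0.52. With 0 bp in both DM libraries, the size at Kdm5b depends on the bp added: -2.38 with 500 bp, -4.47 with 100 bp and -1.02 with 2000 bp. Of the 17 genes, Kdm5b, Kdm2b and Setd4 had an adjusted p under 0.05 in every alternative run. Kdm4b was lost with equal list lengths alone and Kdm5c and Setd6 without centring alone. The other 11 were lost in 3 or more alternatives.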

How the results depend on the processing

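Of gained and lost enzyme gene regions, equal list lengths changed the losses to 16 (Npm1c against WT), 12 (Flt3-ITD against WT), 43 (DM against WT) and 38 (DM against Npm1c), and the gains to 14 (Flt3-ITD against WT) and 10 (DM against Flt3-ITD). With peaks of at least 300 bp, 17 were lost in Npm1c and 33 in Flt3-ITD against WT. The single gain in Flt3-ITD became 2 when 50% of a region had to be covered, and 0 with a gene distance of 50 kb or only midpoints inside genes, where DM gained 11 against WT. Regions called only with the Flt3-ITD allele numbered 10, 2, 0 and 0 under these 4 settings (equal lengths, 50% covered, 50 kb, inside genes). Equal list lengths left 5 only without the Flt3-ITD allele and 3 only without the Npm1c allele, the latter 0 at 50% covered. The same counts over all regions were not computed, under these settings or with a library left out.

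Genes higher in covered length without centring numbered 1 (Npm1c against WT), 0 (Flt3-ITD against WT), 0 (DM against WT), 5 (DM against Npm1c) and 2 (DM against Flt3-ITD), and genes lower 21 in Flt3-ITD and 25 in DM against WT, 1 in DM against Flt3-ITD and 1 in the interaction. In Flt3-ITD against WT, 13 were higher and 3 lower when scaled to the total covered length, 2 higher with 2000 bp added, 5 with no filter, 5 with the replicate block, 3 with equal list lengths (3 lower) and 3 with only midpoints inside genes. The last setting gave 4 higher in DM against WT, 7 lower in DM against Flt3-ITD and 5 lower in the interaction. Against Flt3-ITD, DM had 1 higher with equal lengths and 19 lower with total scaling. The replicate block moved no other count by over 1.5 times, and of the named calls it ended only the interaction of Kmt5b. Without centring, Kdm6b (-0.088), Setd1a (-0.138), Nsd1 (-0.158) and Kdm2a (-0.161) reversed in Flt3-ITD against WT. The cause of these shifts was not tested.

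Leaving out each library in turn can only raise counts of gained and lost regions, since 1 library then has to meet the rule. Gains and losses ranged from 11 to 22 and 38 to 64 in Npm1c against WT, 1 to 13 and 53 to 86 in Flt3-ITD against WT, 18 to 38 and 84 to 104 in DM against WT, 44 to 59 and 67 to 87 in DM against Npm1c, and 28 to 51 and 18 to 37 in DM against Flt3-ITD. Regions with the allele patterns ranged from 1 to 8 (only with Flt3-ITD), 18 to 30 (only without), 0 to 1 (only with Npm1c) and 1 to 6 (only without). Genes higher and lower ranged from 1 to 4 and 5 to 9 in Npm1c against WT, 0 to 5 and 2 to 6 in Flt3-ITD against WT, 5 to 7 and 12 to 17 in DM against WT, 14 to 15 and 15 to 16 in DM against Npm1c, 2 to 4 and 4 to 9 in DM against Flt3-ITD, and 4 to 7 and 4 to 10 in the interaction. The highest counts came without WT replicate 1 (13 and 38 gained in Flt3-ITD and DM against WT), without WT replicate 2 (64 and 86 lost), without Npm1c replicate 1 (22 gained), without DM replicate 1 (59 and 51 gained) and without Flt3-ITD replicate 1 (37 lost). The lone library of a genotype is then assumed to vary like the others in the limma fit.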
